A study of Mus musculus with 29 samples.

Results

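The autophagy machinery genes described here are 49 genes chosen by symbol for their known place in autophagy, with earlier results of these data known. They are 49 of the 48023 genes in a table of read counts from mouse skeletal muscle, and each symbol matched 1 gene identifier. Of the 49 members, 47 had enough reads to be tested, while Atg2a and Vamp8 were listed at 0 reads in all 29 libraries. The members fall into 8 steps: initiation, nucleation, phagophore growth, conjugation, the ATG8 proteins, receptors, fusion, and the ATG8 partners of the TP53INP family.

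The libraries were made from tibialis anterior muscle of male mice aged 2 to 3 months, which the study describes as on a C57BL/6J background. They came from a line with floxed alleles of p110α (Pik3ca) and a line with floxed alleles of p110β (Pik3cb). These are catalytic subunits of the insulin-responsive PI 3-kinase. Knockout mice, called M-p110αKO and M-p110βKO, also carried a Cre recombinase driven by the human alpha-skeletal actin promoter, which acts in muscle fibres, so that the other cells of the tissue keep the gene. The floxed controls of each line, labelled WT, are mice of that line without the knockout. The p110α line gave 4 controls and 4 M-p110αKO killed fed, and 4 controls and 3 M-p110αKO killed fasted. From the p110β line came 3 controls and 4 M-p110βKO killed fed, and again 3 controls and 4 M-p110βKO killed fasted. By the study's own genome scan the p110β line was less pure in its C57BL/6 background than the p110α line. Fasted mice had no food for 24 h. The labels number the mice from 1 to 29 but do not say how they were raised or sampled, so p-values measure the spread between these mice alone.

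Autophagy is the process by which a cell encloses its own cytoplasm in a double membrane, the autophagosome, and delivers it to the lysosome for breakdown. The ULK kinase complex starts the process, a class III PI 3-kinase marks the growing membrane with a lipid that WIPI proteins read, and a pair of ubiquitin-like conjugation systems attaches ATG8 proteins to that membrane. Cargo receptors bind the ATG8 proteins, and tethering and SNARE proteins then fuse the closed vesicle with the lysosome. In skeletal muscle, fasting is a classical inducer of autophagy, and FoxO and TFEB transcription factors are known to act on many of its genes when insulin signalling is low.

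A stretch before 1 RefSeq transcript start is shown for each of 4 members, because these genes carry the fasting results described next. Gabarapl1 and Ulk1 had the largest rises and Trp53inp2 the largest fall of the 47 members, and Atg7 was 1 of the 3 conjugation genes that were not called. Each runs 5′ to 3′ on the strand of its gene, from 250 to 61 bases before the RefSeq start, in lower case, in the build GRCm38.p6. Capitals mark a CACGTG motif. The stretches of Gabarapl1 and Ulk1 lie outside the gene as GENCODE annotates it, whereas that of Trp53inp2 begins 547 bases and that of Atg7 27749 bases after the first base of the annotated gene, before the start of a RefSeq transcript that begins inside it.
Gabarapl1 (chr6:129532942-129533131, plus strand): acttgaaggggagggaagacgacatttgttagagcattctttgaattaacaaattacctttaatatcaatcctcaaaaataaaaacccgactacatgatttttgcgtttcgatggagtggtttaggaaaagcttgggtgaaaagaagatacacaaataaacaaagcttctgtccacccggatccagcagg
Ulk1 (chr5:110810142-110810331, minus strand): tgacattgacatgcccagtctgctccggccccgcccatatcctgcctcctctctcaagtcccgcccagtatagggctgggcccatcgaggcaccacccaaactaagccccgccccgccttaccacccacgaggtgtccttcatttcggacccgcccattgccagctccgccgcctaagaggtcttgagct
Trp53inp2 (chr2:155381606-155381795, plus strand): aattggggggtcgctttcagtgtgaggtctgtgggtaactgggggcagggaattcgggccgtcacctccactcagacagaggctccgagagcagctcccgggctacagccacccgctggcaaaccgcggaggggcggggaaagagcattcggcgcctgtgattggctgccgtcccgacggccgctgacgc
Atg7 (chr6:114670846-114671035, plus strand): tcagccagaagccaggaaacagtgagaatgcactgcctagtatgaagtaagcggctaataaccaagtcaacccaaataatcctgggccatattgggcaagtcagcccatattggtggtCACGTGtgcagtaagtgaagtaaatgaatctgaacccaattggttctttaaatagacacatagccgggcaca

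Promoter windows from 250 bases before to 50 bases after the start were searched for TGTTTAC, the core of the FoxO site, and for CACGTG, the E-box that TFEB proteins bind, on both strands, without overlap between the motifs. A window was given for 40 of the 49 members. None of the 40 held TGTTTAC, which 4.05% of all 27025 genes with a window held. CACGTG stood in the windows of 4 members (10%), namely Atg14, Atg3, Atg5 and Atg7, against 8.09% of all genes. In Atg7 it lay 132 bases before the RefSeq start, inside the gene that GENCODE annotates. A match is only a description of these letters, and its absence says nothing of the factor.

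Between 5351935 and 11653239 reads were assigned to genes per library (median 7828640). Marker genes of the muscle fibre were high throughout, at a summed 99360 to 141908 CPM (counts scaled to a common library size), and none was at 0. Mice 23 and 24, fasted controls of the p110β line, stood apart with a summed level of 6 adipocyte markers of 149.97 and 146 CPM, where the other 27 libraries were at 19.8 CPM or less. Mouse 25, the third of that group, had the highest sum of 5 slow-fibre markers, 108 CPM, against 67.7 CPM or less elsewhere. In the fasted M-p110βKO, all 6 fibroblast markers and all 4 macrophage markers tested were lower than in the fed ones. The fasted M-p110αKO also stood apart at 77 genes that differ strongly between the fed lines. Their median position between the fed p110α line at 0 and the fed p110β line at 1 was 0.14 to 0.17, against −0.02 to 0 in the fasted p110α controls. Both the 77 genes and the ends of the scale were set from the fed mice, so these lie near 0 or 1 by construction. The fed p110α-line mice were at −0.04 to 0.02 and the fed p110β-line mice at 0.95 to 1.06. In the fasted p110β-line mice the position was 0.76 to 0.92. Counts over the whole gene did not show the targeted deletion. Pik3ca was at 103 to 191 CPM and Pik3cb at 8.62 to 16.6 CPM over all groups, and neither was called in any knockout comparison. The study reports reduced p110α and p110β mRNA in hindlimb muscle of the respective knockouts. The counts used here cover all exons of each gene, and reads over the floxed exon alone were not examined. The labels were therefore not checked, and the cause of the difference from the study's values was not tested. The tissue was measured in bulk, so fewer cells of a type and less RNA per cell cannot be told apart in any result.

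**Figure D1:**
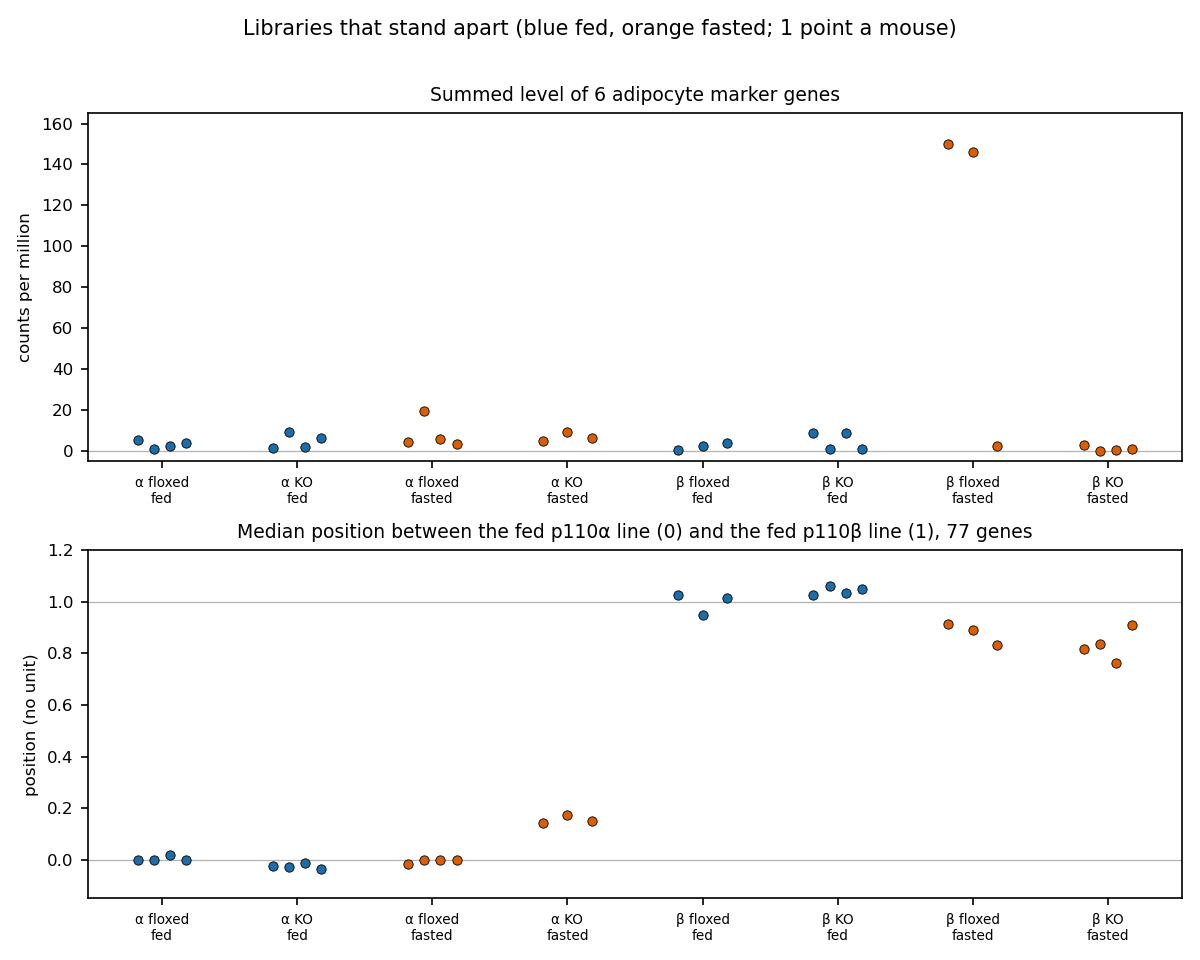
Summed level of 6 adipocyte marker genes in CPM (upper panel) and median position of 77 line-differing genes on a scale without unit (lower panel), 1 point a mouse, fed in blue and fasted in orange. Mice 23 and 24 sit at 149.97 and 146 CPM above all others, and the 3 fasted M-p110αKO sit at 0.14 to 0.17, above the other mice of their line.

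In the fed floxed controls of both lines (n = 7) the members spanned about 2 orders of magnitude in level per kilobase of exon. Trp53inp2, whose protein brings ATG8 proteins to the autophagosome, led with 138 ± 20.8 CPM per kilobase (mean ± SD). The receptor Sqstm1 (p62) at 105 ± 9.48 and the lysosomal-traffic GTPase Rab7 at 102 ± 15.1 followed, and these neighbours lay within each other's spread. Of the ATG8 proteins, Gabarap was at 71.2 ± 4.66, Map1lc3a at 63.1 ± 17.9, Map1lc3b at 24.8 ± 2.15, Gabarapl2 at 15.3 ± 3.21 and Gabarapl1 at 8.50 ± 1.45 CPM per kilobase. Gabarapl1 was thus the lowest of its family in fed muscle. The lines differed for Map1lc3a, which was at 52.1 to 82.4 CPM in fed p110α controls and 83.7 to 108 CPM in fed p110β controls. Its place below Gabarap is therefore that of the pooled mice alone. The conjugation enzymes were all under 10 CPM per kilobase, from Atg4a at 8.99 ± 0.679 down to Atg16l2 at 1.34 ± 0.376. The lowest tested member was Uvrag, a subunit of the class III PI 3-kinase, at 1.31 ± 0.206 CPM per kilobase.

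Fasting raised a large share of the machinery in both lines and both genotypes. Averaged over the 4 genotypes, 29 of the 47 members tested rose and 9 fell, where 27.2% of all 12760 genes tested rose and 28.0% fell. The median log2 fold change of the members was 0.28, against −0.02 over all genes. Most members of initiation, nucleation, phagophore growth and fusion and every receptor rose, whereas the conjugation enzymes held 6 of the 9 falls. The differences between steps were not tested.

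In the floxed controls of the p110α line, 19 members rose and 5 fell, against 15.4% and 14.7% of all genes, with a median of 0.20 against 0.00. In M-p110αKO, 19 rose and 7 fell, against 11.6% and 9.91%, with a median of 0.29. In the floxed controls of the p110β line, 23 rose and 2 fell, against 14.5% and 12.4%, with a median of 0.43 against −0.02. In M-p110βKO, 21 rose and 4 fell, against 19.0% and 18.9%, with a median of 0.21 against −0.02. These 4 comparisons share no mice. The calls rest on edgeR's quasi-likelihood test with a Benjamini-Hochberg adjusted p under 0.05, over all genes.

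Called higher in all 4 comparisons were 13 members (27.7% of the 47), where 4.50% of the 12000 genes tested in both lines were. They were Ulk1 and Atg13 of the initiation complex, Pik3c3 and Atg14 of nucleation, Wipi1 and Atg2b of phagophore growth, Map1lc3b and Gabarapl1 of the ATG8 proteins, the receptors Sqstm1, Nbr1, Tax1bp1 and Calcoco1, and the tether Epg5. Of these 13, 10 were called in all 4 under every alternative, and the count ran from 11 to 14. The exceptions were Atg14, whose call ended under 6 alternatives in M-p110αKO and without mouse 21 in M-p110βKO, Wipi1, whose call ended under 3 in the p110α controls, and Pik3c3, whose call ended without mouse 13 in M-p110αKO. Rb1cc1, Uvrag, Vmp1 and Wipi2 were called higher in 3 of the 4, and there the call of Vmp1 in the p110α controls ended under 9 alternatives and that of Wipi2 in the p110β controls under 3. Trp53inp2 was the single member called lower in all 4, and Atg101 and Atg4d were called lower in 3, of which the Atg101 calls in M-p110αKO and M-p110βKO and the Atg4d call in M-p110αKO each ended under an alternative. Fed and fasted mice did not overlap at all for 9 members that were higher on fasting, where 1.85% of all genes showed this, and for 1 member that was lower, Trp53inp2, where 1.26% did. The 9 were Ulk1, Atg13, Uvrag, Map1lc3b, Gabarapl1, Sqstm1, Tax1bp1, Calcoco1 and Epg5.

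**Figure D2:**
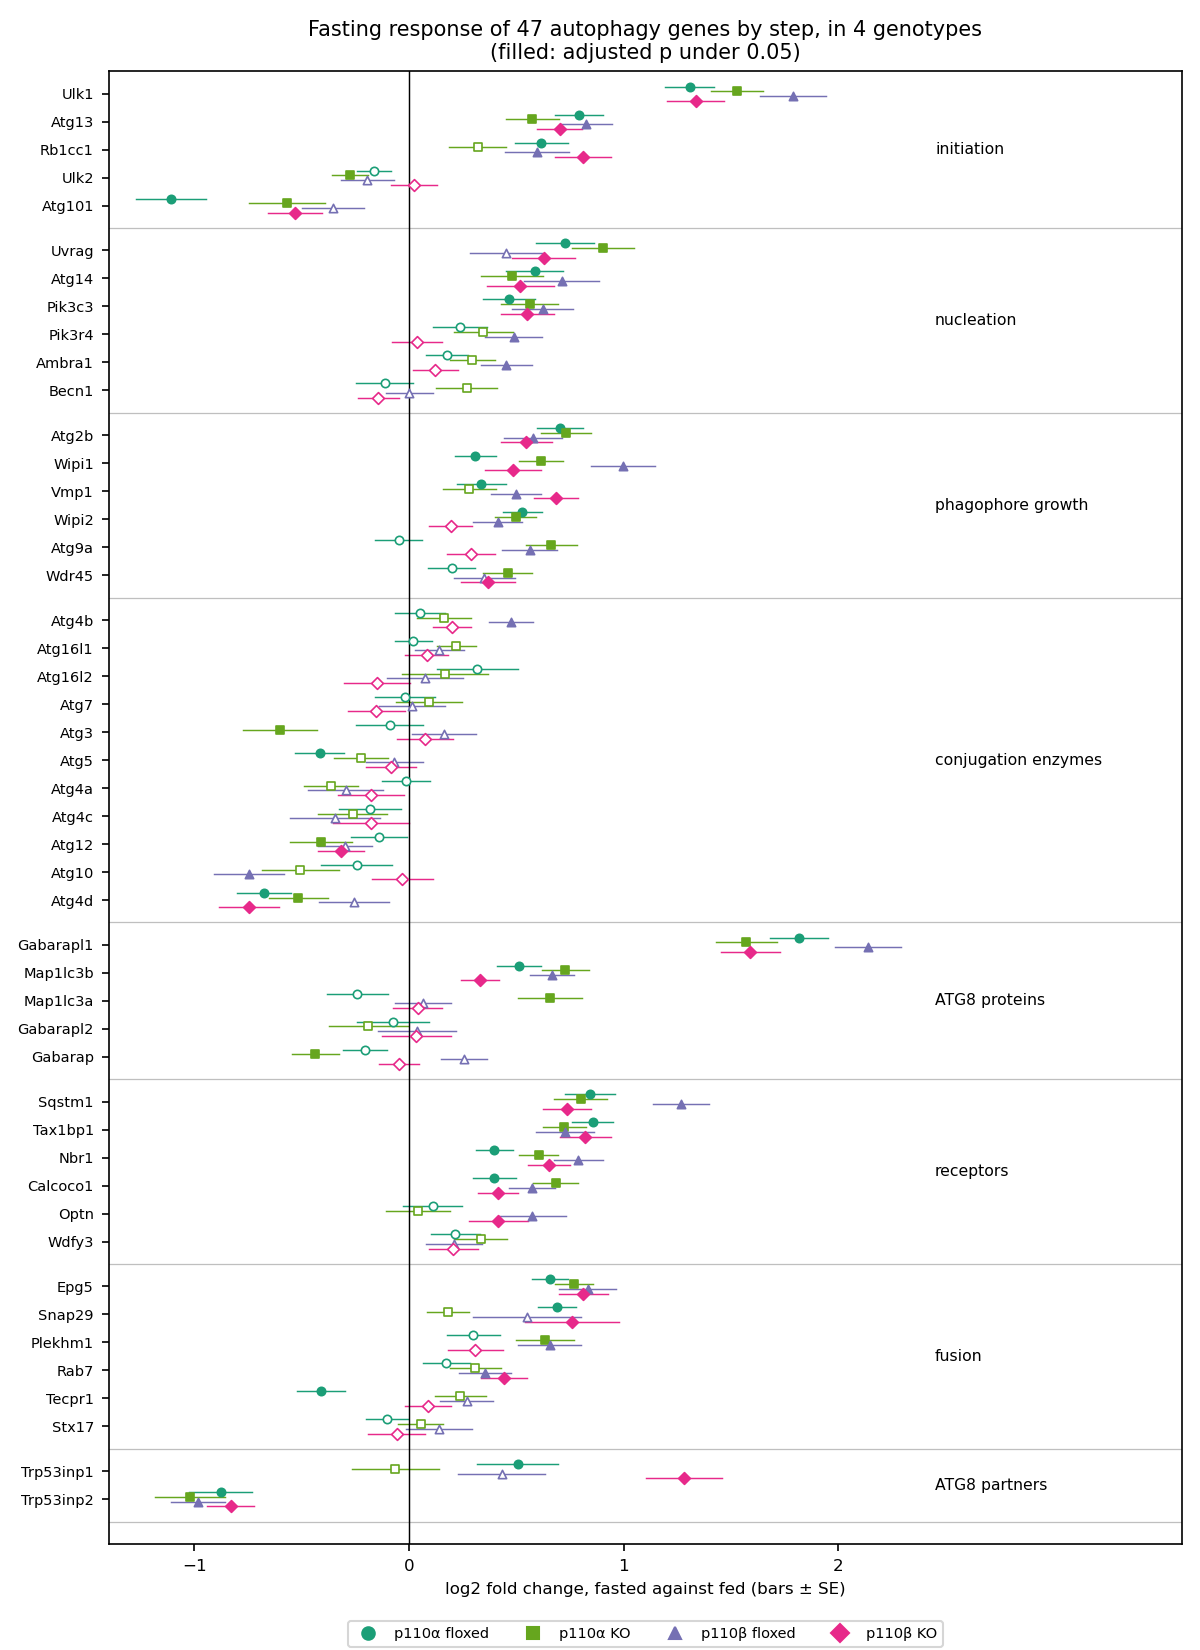
Log2 fold change of fasted against fed muscle on the x axis (points, with bars of ± 1 SE) for each of the 47 members tested, grouped by step, in the 4 genotypes; filled points have an adjusted p under 0.05. Gabarapl1 and Ulk1 lie farthest to the right in all genotypes, Trp53inp2 lies farthest to the left on average, and most conjugation enzymes lie at or left of 0.

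At initiation, 3 of the 5 members rose over the 4 genotypes and 2 fell. Ulk1, the kinase that starts autophagosome formation, was at 112, 104, 92.1 and 108 CPM in the fed and 272, 223, 312 and 229 CPM in the fasted controls of the p110α line, and at 97.8, 81.3, 87.6 and 86.3 CPM in fed and 259, 276 and 227 CPM in fasted M-p110αKO. In the p110β line it was at 95.2, 111 and 104 CPM in fed and 341, 315 and 405 CPM in fasted controls, and at 91.3, 101, 86.4 and 98.6 CPM in fed and 241, 254, 171 and 286 CPM in fasted M-p110βKO. Every fasted mouse was above every fed mouse. The log2 fold change was 1.31 ± 0.11 (log2 ± SE), 1.53 ± 0.12, 1.79 ± 0.15 and 1.34 ± 0.13 in the p110α controls, M-p110αKO, p110β controls and M-p110βKO, each called, and 1.49 ± 0.07 on average (edgeR adjusted p = 1.2e-16), which is 2.81-fold.

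Atg13, the adaptor subunit of the same complex, was at 67.2, 65.1, 54.9 and 57.3 CPM in fed and 104, 108, 126 and 88.5 CPM in fasted p110α controls, and at 62.7, 50.4, 60.6 and 53.4 CPM in fed and 90.0, 85.0 and 78.0 CPM in fasted M-p110αKO. Its level in the p110β line was 57.2, 57.7 and 55.9 CPM in fed and 99.3, 86.2 and 115 CPM in fasted controls, and 48.2, 51.7, 52.2 and 49.1 CPM in fed and 82.0, 84.0, 69.4 and 92.3 CPM in fasted M-p110βKO. Its rise was smaller than that of Ulk1 in each genotype, at 0.72 ± 0.06 (log2) on average (adjusted p = 1.6e-11), without overlap between fed and fasted mice. The scaffold Rb1cc1 (FIP200) rose by 0.58 ± 0.07 (log2) on average. With exon GC content and length corrected for, its rise was smaller, at 0.36 in place of 0.62 in the p110α controls and 0.49 in place of 0.81 in M-p110βKO (log2), and stayed called.

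Atg101, the partner that stabilises Atg13, went the other way. It was at 18.8, 22.3, 17.5 and 29.1 CPM in fed and 10.0, 12.3, 7.57 and 11.0 CPM in fasted p110α controls, and at 17.6, 21.0, 17.3 and 19.0 CPM in fed and 12.6, 13.2 and 12.0 CPM in fasted M-p110αKO. The mice of the p110β line had it at 22.2, 17.7 and 25.0 CPM in fed and 17.6, 15.9 and 17.2 CPM in fasted controls, and at 24.4, 22.8, 23.8 and 26.8 CPM in fed and 15.9, 14.7, 19.7 and 17.4 CPM in fasted M-p110βKO. Over the whole series the ranges of fed and fasted mice overlapped. The log2 fold change was −1.11 ± 0.16 (adjusted p = 8e-05) in the p110α controls, −0.57 ± 0.18 (adjusted p = 0.030) in M-p110αKO, −0.35 ± 0.14 (adjusted p = 0.078) in the p110β controls, which was not called, and −0.53 ± 0.13 (adjusted p = 0.0027) in M-p110βKO. Correcting for GC content and exon length ended the call in M-p110βKO, at −0.22 (log2, adjusted p = 0.12), and in M-p110αKO it was lost without mouse 6, 13, 14 or 15 (−0.60 to −0.51, adjusted p = 0.056 to 0.078). Ulk2, the paralogue of Ulk1, had −0.15 ± 0.05 (log2, adjusted p = 0.0074) on average and was called in 1 genotype alone, M-p110αKO.

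At nucleation, 5 of the 6 members rose and none fell. Pik3c3 (VPS34), the lipid kinase itself, rose by 0.55 ± 0.07 (log2) and its autophagy-specific subunit Atg14 by 0.57 ± 0.07, both called in all 4 genotypes. In M-p110αKO the call of Pik3c3 ended without mouse 13, at 0.38 (log2, adjusted p = 0.072). There the call of Atg14 ended with no filter, with the compared groups alone and without mouse 6, 8, 13 or 14, at 0.39 to 0.48 (log2, adjusted p = 0.063 to 0.13), and in M-p110βKO it ended without mouse 21, at 0.45 (log2, adjusted p = 0.0503). Uvrag rose by 0.68 ± 0.07 (log2), and its levels were 8.03 to 14.5 CPM (median 11.3) in the 15 fed mice and 15.1 to 21.9 CPM (median 18.8) in the 14 fasted mice, without overlap. The regulatory kinase Pik3r4 (VPS15) and the scaffold Ambra1 rose less, by 0.28 ± 0.06 (log2) and 0.26 ± 0.05. Becn1 (Beclin 1), the core subunit of the complex, was at 64.7, 52.5, 63.1 and 40.8 CPM in fed and 52.0, 49.3, 53.9 and 49.2 CPM in fasted p110α controls, and at 54.7, 52.3, 54.3 and 49.7 CPM in fed and 57.2, 77.7 and 55.2 CPM in fasted M-p110αKO. Within the p110β line it stood at 68.3, 69.9 and 71.9 CPM in fed and 67.7, 76.3 and 64.8 CPM in fasted controls, and at 66.7, 64.0, 63.2 and 63.9 CPM in fed and 55.9, 68.7, 56.0 and 52.7 CPM in fasted M-p110βKO. Fed and fasted mice overlapped, and Becn1 was not called in any genotype, with 0.0018 ± 0.06 (log2, adjusted p = 0.98) on average. Of its exon length, 3104 of 7065 bases overlap Cntd1 on the opposite strand, and since the strand setting of the counting is not given, reads of the pair cannot be told apart.

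At phagophore growth all 6 members tested rose over the 4 genotypes. Wipi1, a reader of the class III PI 3-kinase lipid, was at 78.8, 89.2, 73.4 and 84.8 CPM in fed and 100.1, 106, 103 and 97.3 CPM in fasted p110α controls, and at 69.7, 65.4, 78.2 and 77.8 CPM in fed and 101, 123 and 109.8 CPM in fasted M-p110αKO. In the p110β line it was at 69.4, 61.6 and 66.02 CPM in fed and 146, 138 and 106 CPM in fasted controls, and at 67.8, 76.5, 67.1 and 76.2 CPM in fed and 85.5, 129, 101 and 86.0 CPM in fasted M-p110βKO. Its log2 fold change was 0.31 ± 0.09 (adjusted p = 0.020) in the p110α controls and 1.00 ± 0.15 (adjusted p = 9.4e-05) in the p110β controls. In M-p110αKO it was 0.61 ± 0.10 (log2, adjusted p = 0.00045) and in M-p110βKO 0.48 ± 0.13 (adjusted p = 0.0070). The call in the p110α controls ended with upper-quartile factors, with no filter and without mouse 3 (0.26 to 0.31, adjusted p = 0.052 to 0.081).

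Vmp1, a membrane protein of the endoplasmic reticulum needed for autophagosome formation, was at 68.2, 63.9, 86.1 and 88.6 CPM in fed and 96.4, 94.7, 109 and 88.7 CPM in fasted p110α controls, and at 64.6, 76.3, 77.3 and 79.8 CPM in fed and 100.3, 84.2 and 86.6 CPM in fasted M-p110αKO. Its level in the p110β line was 55.9, 62.6 and 54.3 CPM in fed and 70.6, 83.0 and 88.5 CPM in fasted controls, and 52.3, 59.3, 55.0 and 55.6 CPM in fed and 92.6, 77.2, 89.0 and 98.6 CPM in fasted M-p110βKO. The fasted mice of the p110β line were all above its fed mice, while in the p110α line the ranges overlapped. Vmp1 rose by 0.34 ± 0.12 (log2) in the p110α controls, 0.50 ± 0.12 in the p110β controls and 0.68 ± 0.10 in M-p110βKO, and had 0.28 ± 0.12 (adjusted p = 0.12) in M-p110αKO, which was not called. The call in the p110α controls ended under 9 alternatives, and the change there was 0.16 (log2, adjusted p = 0.38) with the GC and length correction. The lipid-transfer protein Atg2b rose by 0.64 ± 0.06 (log2) on average, Wipi2 by 0.41 ± 0.05, the scramblase Atg9a by 0.36 ± 0.06 and Wdr45 (WIPI4) by 0.34 ± 0.06. The paralogue Atg2a was listed at 0 in every library, and so were the other 4 protein-coding genes within 60 kb of it on chromosome 19. Vamp8 on chromosome 6 was listed at 0 in the same way, and its 6 protein-coding neighbours within 60 kb held 7 reads in all over the 29 libraries. The reason for these low counts was not tested, so Atg2a and Vamp8 are not read as absent from muscle.

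The conjugation enzymes were the step with more falls than rises. Of the 11, 2 rose (Atg4b and Atg16l1) and 6 fell (Atg4a, Atg4c, Atg4d, Atg5, Atg10 and Atg12) over the 4 genotypes, with a median of −0.20, while Atg3, Atg7 and Atg16l2 were not called. The Atg16l1 call, at 0.11 ± 0.05 (adjusted p = 0.034), ended under 11 alternatives, among them the GC and length correction, which gave 0.02 (adjusted p = 0.80), upper-quartile factors with 0.06 (adjusted p = 0.26), no filter, and leaving out mouse 3, 11, 18, 19, 22, 25 or 28. That of Atg5 ended with no filter, those of Atg4a and Atg4c without the fasted M-p110αKO, and that of Atg4c also without mouse 25. In none of the 11 was the change called in the same direction in all 4 genotypes. The largest fall was that of the protease Atg4d, by 0.55 ± 0.07 (log2) on average (adjusted p = 2.4e-07), with levels of 28.8 to 47.9 CPM (median 34.6) in the 15 fed mice and 18.0 to 34.0 CPM (median 23.7) in the 14 fasted mice. Kri1 on the opposite strand overlaps 1405 bases of its exons. The ubiquitin-like protein Atg12 fell by 0.29 ± 0.06 (log2) and its partner Atg5 by 0.20 ± 0.06, and the E2-like enzyme Atg10, which joins them, fell by 0.39 ± 0.08. Atg7, the E1-like enzyme of both conjugation systems and the gene whose printed stretch holds CACGTG, had −0.02 ± 0.07 (log2, adjusted p = 0.85), with 10.1 to 20.1 CPM (median 13.7) in the 15 fed mice and 10.5 to 18.1 CPM (median 14.3) in the 14 fasted mice. The E2-like enzyme Atg3 had −0.12 ± 0.08 (log2, adjusted p = 0.20) on average.

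Among the ATG8 proteins, fasting raised Map1lc3b and Gabarapl1 in every genotype, and the other 3 were not called on average. Gabarapl1 was at 16.2, 17.6, 12.5 and 21.3 CPM in fed and 61.6, 52.3, 65.6 and 63.2 CPM in fasted p110α controls, and at 20.0, 18.7, 19.4 and 16.6 CPM in fed and 51.9, 62.2 and 51.4 CPM in fasted M-p110αKO. The mice of the p110β line had it at 15.9, 16.2 and 20.0 CPM in fed and 66.2, 65.3 and 97.6 CPM in fasted controls, and at 14.7, 15.2, 14.5 and 17.7 CPM in fed and 46.1, 46.1, 44.9 and 50.5 CPM in fasted M-p110βKO. The lowest fasted mouse was at more than 2 times the highest fed mouse. The log2 fold change was 1.82 ± 0.14 in the p110α controls, 1.57 ± 0.14 in M-p110αKO, 2.14 ± 0.15 in the p110β controls and 1.59 ± 0.14 in M-p110βKO, and 1.78 ± 0.07 on average (adjusted p = 1.4e-17), or 3.43-fold. This was the largest average change of any member. The noncoding gene 1700101I11Rik overlaps 570 of the 2013 exon bases of Gabarapl1 on the opposite strand and also covers the upstream stretch shown for it.

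Map1lc3b (LC3B), the most used marker of autophagosomes, was at 199, 175, 168 and 167 CPM in fed and 252, 256, 273 and 233 CPM in fasted p110α controls, and at 186, 198, 187 and 161 CPM in fed and 338, 316 and 255 CPM in fasted M-p110αKO. Within the p110β line it stood at 187, 203 and 204 CPM in fed and 316, 298 and 319 CPM in fasted controls, and at 199.6, 202, 186 and 216 CPM in fed and 239, 247, 244 and 281 CPM in fasted M-p110βKO. All fasted mice were above all fed mice. Its log2 fold change ran from 0.33 ± 0.09 in M-p110βKO to 0.73 ± 0.11 in M-p110αKO, and was 0.56 ± 0.05 on average (adjusted p = 1e-10). Gabarap had −0.11 ± 0.05 (log2, adjusted p = 0.063), Gabarapl2 had −0.05 ± 0.09 (adjusted p = 0.67), and Map1lc3a had 0.13 ± 0.07 (adjusted p = 0.12). Map1lc3a was called higher on fasting in M-p110αKO alone, as described with the knockouts.

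**Figure D3:**
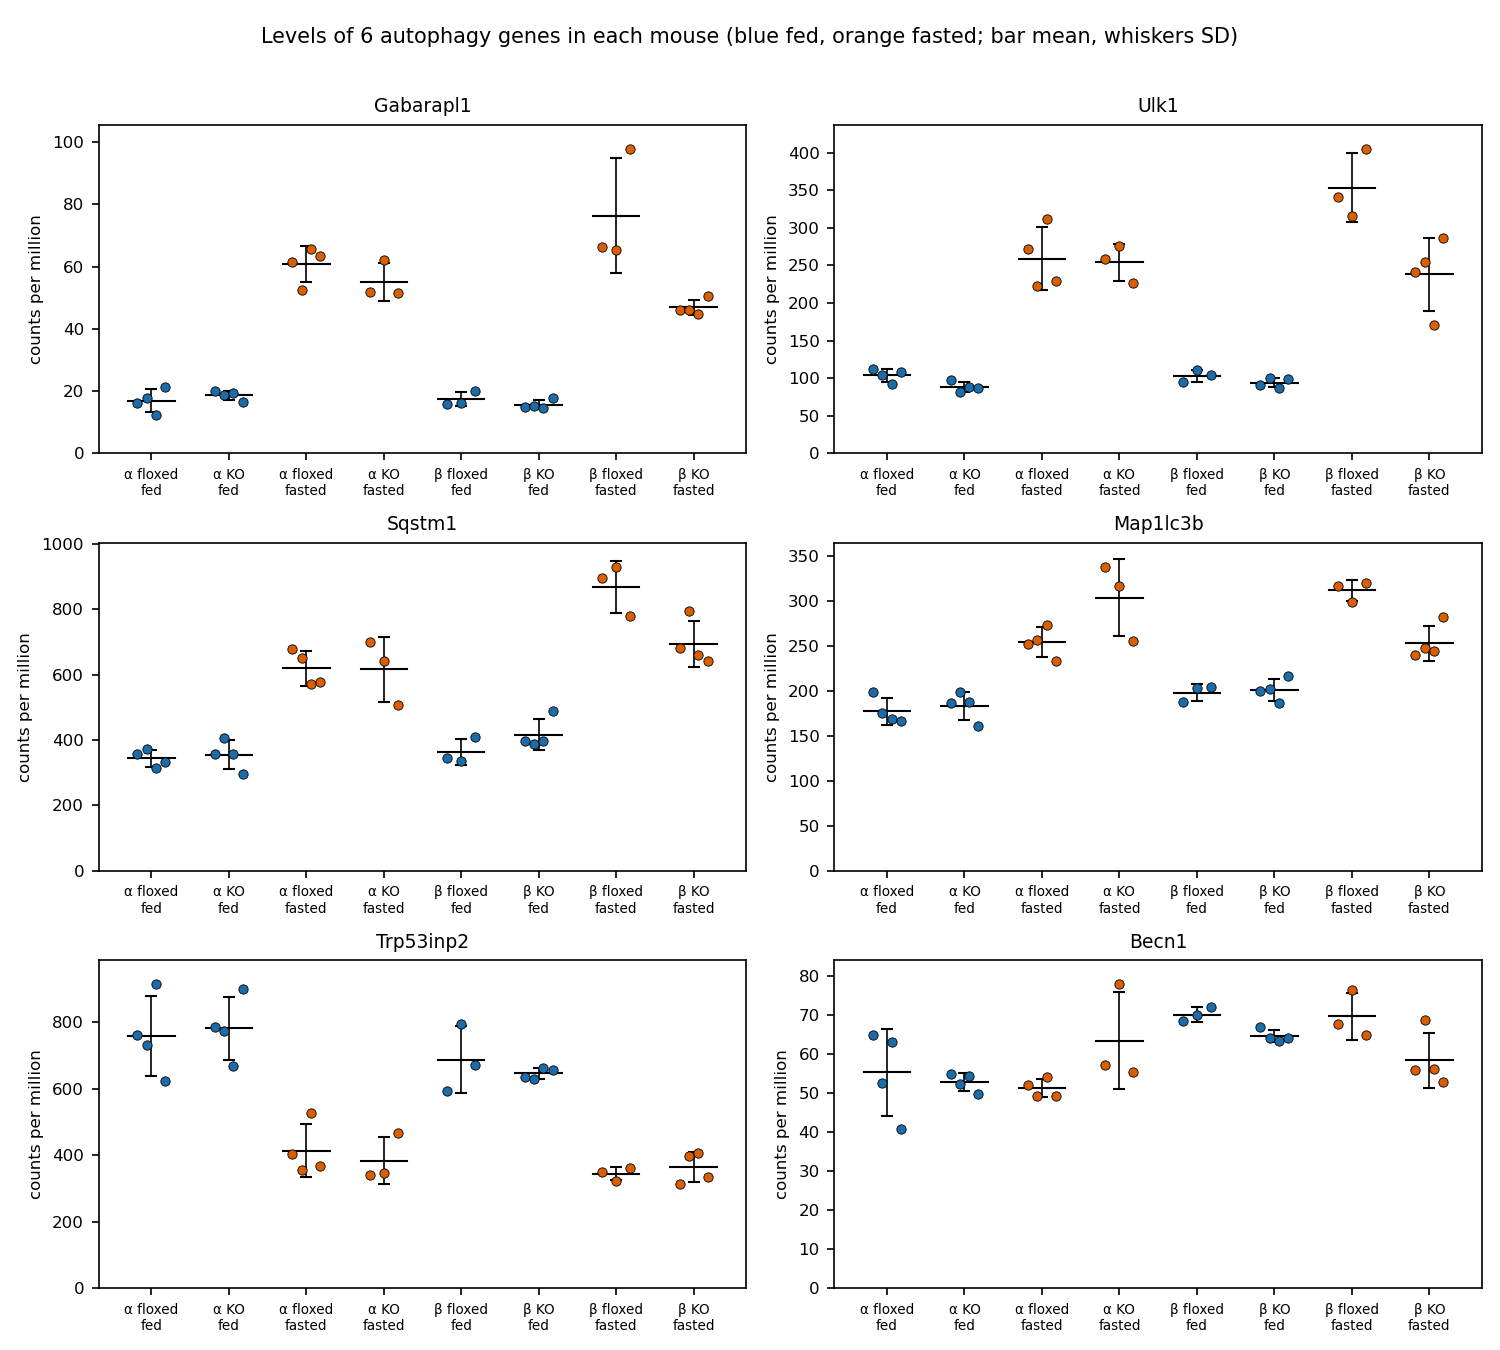
Level in CPM (y axis, from 0) of 6 members in each mouse of the 8 groups, 1 point a mouse, with the group mean and SD, fed in blue and fasted in orange. Fasted mice lie above fed mice without overlap for Gabarapl1, Ulk1, Sqstm1 and Map1lc3b, below them for Trp53inp2, and within the same range for Becn1.

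All 6 receptors rose over the 4 genotypes, and 4 of them, Sqstm1, Nbr1, Tax1bp1 and Calcoco1, in each genotype. Sqstm1 (p62), which links ubiquitinated cargo to the ATG8 proteins, was at 358, 372, 313 and 332 CPM in fed and 679, 650.5, 570.1 and 579 CPM in fasted p110α controls, and at 358, 406, 357 and 297 CPM in fed and 700.3, 643 and 507 CPM in fasted M-p110αKO. In the p110β line it was at 346, 334 and 410.3 CPM in fed and 896, 929.5 and 779.6 CPM in fasted controls, and at 396, 387, 395 and 487 CPM in fed and 680.4, 796, 659.9 and 641 CPM in fasted M-p110βKO. The highest fed mouse stayed below the lowest fasted mouse. It rose by 0.84 ± 0.12 (log2), 0.80 ± 0.12, 1.27 ± 0.13 and 0.74 ± 0.11 in the p110α controls, M-p110αKO, p110β controls and M-p110βKO, and by 0.91 ± 0.06 on average (adjusted p = 3.4e-13).

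Nbr1, a receptor that works with Sqstm1, was at 119, 118, 117 and 128 CPM in fed and 159, 155, 174 and 151 CPM in fasted p110α controls, and at 117, 107, 125 and 119 CPM in fed and 181, 164 and 188 CPM in fasted M-p110αKO. Its level in the p110β line was 74.4, 82.9 and 93.0 CPM in fed and 134, 151 and 144 CPM in fasted controls, and 82.1, 88.6, 77.4 and 93.7 CPM in fed and 142, 141, 134 and 120.2 CPM in fasted M-p110βKO. Within each line fed and fasted mice did not overlap, but the fed p110α line reached into the range of the fasted p110β line. The average rise was 0.61 ± 0.05 (log2, adjusted p = 5.9e-12).

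Tax1bp1, a ubiquitin-binding receptor, was at 106, 115, 112 and 96.96 CPM in fed and 193, 205, 199 and 184 CPM in fasted p110α controls, and at 113, 104, 107 and 104 CPM in fed and 189, 149 and 190.5 CPM in fasted M-p110αKO. The mice of the p110β line had it at 82.6, 92.8 and 82.9 CPM in fed and 128, 131 and 164 CPM in fasted controls, and at 73.8, 98.3, 75.4 and 94.3 CPM in fed and 163, 157, 129 and 155 CPM in fasted M-p110βKO. Fed and fasted mice did not overlap, and the average rise was 0.78 ± 0.06 (log2, adjusted p = 1.8e-12). Calcoco1, a receptor for the endoplasmic reticulum, was at 84.9, 81.9, 75.4 and 88.4 CPM in fed and 113, 107, 111 and 107 CPM in fasted p110α controls, and at 73.6, 74.4, 89.4 and 70.2 CPM in fed and 127, 136 and 106 CPM in fasted M-p110αKO. Within the p110β line it stood at 82.0, 77.8 and 77.4 CPM in fed and 116, 118 and 116 CPM in fasted controls, and at 79.5, 86.6, 71.2 and 88.3 CPM in fed and 109, 105, 98.9 and 121 CPM in fasted M-p110βKO. Again the groups did not overlap, with an average rise of 0.51 ± 0.05 (log2, adjusted p = 5.8e-10). Optn (optineurin) and Wdfy3 (ALFY), a receptor and a scaffold for aggregates, rose by 0.28 ± 0.08 (log2) and 0.24 ± 0.06 on average. Optn was called in both genotypes of the p110β line, and Wdfy3 in none of the 4 taken alone.

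At fusion, 4 of the 6 members tested rose over the 4 genotypes, namely Epg5, Snap29, Plekhm1 and Rab7. Epg5, the tether between autophagosome and lysosome, was at 72.3, 72.4, 79.1 and 74.0 CPM in fed and 116, 121, 121 and 112 CPM in fasted p110α controls, and at 67.1, 64.0, 71.8 and 75.7 CPM in fed and 126, 114 and 115 CPM in fasted M-p110αKO. In the p110β line it was at 53.8, 52.8 and 56.3 CPM in fed and 89.5, 92.0 and 107 CPM in fasted controls, and at 54.1, 58.5, 56.1 and 48.7 CPM in fed and 92.3, 119, 80.0 and 90.2 CPM in fasted M-p110βKO. All fasted mice were above all fed mice, by 0.77 ± 0.05 (log2) on average (adjusted p = 4.3e-13). The adaptor Plekhm1 rose by 0.47 ± 0.07 (log2) and Rab7 by 0.32 ± 0.06. The SNARE Stx17 had 0.01 ± 0.06 (log2, adjusted p = 0.94), and Tecpr1, a tether that binds the Atg12 and Atg5 conjugate, had 0.04 ± 0.06 (adjusted p = 0.52).

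Snap29, the SNARE that pairs with Stx17, was called in 2 of the 4 genotypes, and the difference between their responses was not called in either line. It was at 59.7, 58.9, 60.6 and 58.9 CPM in fed and 101, 95.4, 105 and 84.7 CPM in fasted p110α controls, a rise of 0.69 ± 0.09 (log2, adjusted p = 2.3e-05) without overlap. In M-p110αKO it was at 45.3, 51.3, 44.0 and 45.3 CPM fed and 56.2, 49.1 and 52.6 CPM fasted, 0.18 ± 0.10 (log2, adjusted p = 0.19), which was not called. In the p110β controls it was at 48.6, 50.5 and 45.3 CPM fed and 47.6, 47.4 and 115 CPM fasted, where mouse 25 was at more than 2 times the others. The difference there was 0.55 ± 0.25 (log2, adjusted p = 0.11), and it was −0.01 (adjusted p = 0.98) without mouse 25. Without mice 23 and 24 it was 1.27 (log2), with mouse 25 the only mouse left in its group. The 2 mice with high adipocyte markers were thus at the fed level and the mouse with high slow-fibre markers above it, and the part of these in the result was not tested. In M-p110βKO Snap29 was at 29.8, 45.3, 34.3 and 43.0 CPM fed and 66.2, 67.5, 55.0 and 69.7 CPM fasted, a rise of 0.76 ± 0.22 (log2, adjusted p = 0.011).

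Averaged over the 4 genotypes the 2 TP53INP genes moved in opposite directions, though Trp53inp1 was called higher in only 2 of the genotypes. Trp53inp2 was at 763, 732, 914 and 625 CPM in fed and 405, 357, 528 and 368 CPM in fasted p110α controls, and at 787, 774, 668 and 899.8 CPM in fed and 339.8, 346 and 467 CPM in fasted M-p110αKO. Its level in the p110β line was 594, 794 and 672 CPM in fed and 350.0, 323 and 361 CPM in fasted controls, and 635, 629.5, 664 and 656 CPM in fed and 315, 399, 406 and 335 CPM in fasted M-p110βKO. Every fasted mouse was below every fed mouse. The log2 fold change was −0.88 ± 0.15, −1.02 ± 0.16, −0.98 ± 0.13 and −0.83 ± 0.11 in the p110α controls, M-p110αKO, p110β controls and M-p110βKO, and −0.93 ± 0.07 on average (adjusted p = 7.4e-12).

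Trp53inp1, a stress-induced protein that also binds ATG8 proteins, was at 24.2, 27.9, 30.8 and 30.0 CPM in fed and 34.1, 40.4, 48.2 and 38.1 CPM in fasted p110α controls, and at 33.1, 36.3, 30.8 and 38.9 CPM in fed and 36.9, 18.7 and 44.2 CPM in fasted M-p110αKO. The mice of the p110β line had it at 14.1, 22.1 and 18.8 CPM in fed and 23.8, 22.3 and 27.1 CPM in fasted controls, and at 9.05, 19.8, 11.8 and 15.9 CPM in fed and 35.4, 33.2, 34.3 and 35.0 CPM in fasted M-p110βKO. The clearest separation was in M-p110βKO, with a rise of 1.28 ± 0.18 (log2, adjusted p = 2.4e-05). In the p110α controls it was 0.51 ± 0.19 (log2, adjusted p = 0.050), at the edge of the threshold and lost under 15 alternatives, in the p110β controls 0.43 ± 0.20 (adjusted p = 0.12) and in M-p110αKO −0.07 ± 0.20 (adjusted p = 0.85). The difference between the fasting responses of M-p110βKO and its controls, 0.85 (log2), was not called (adjusted p = 0.23).

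In fed muscle, loss of either subunit left no member past the threshold. Between fed M-p110αKO and controls, 0 members were called, where 0.193% of all genes were higher and 0.418% lower. With edgeR, 0 higher and 6 lower members had an unadjusted p under 0.05, while DESeq2's Wald test called 2 and limma-voom 0. Atg9a had the smallest p, with −0.49 ± 0.11 (log2, adjusted p = 0.054), followed by Snap29 with −0.36 ± 0.09 (adjusted p = 0.085). Gm29253 on the same strand and Ankzf1 on the opposite strand overlap 1878 of the 5762 exon bases of Atg9a, and their part in its value was not tested. For M-p110βKO against fed controls, 0 members and 0% of all genes were called higher and 0% lower, and an unadjusted p under 0.05 was found for 0 higher members and 1 lower one. DESeq2 and limma-voom also called 0. The share of all genes with an unadjusted p under 0.05 is not given here, so these unadjusted counts cannot be set against it.

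In fasted muscle of the p110α line, 4 members differed between M-p110αKO and controls, 2 higher and 2 lower, where 3.02% of all genes were higher and 3.51% lower, so the members' shares of 4.26% each were near the background. Snap29 was lower, at 56.2, 49.1 and 52.6 CPM against 101, 95.4, 105 and 84.7 CPM, with a log2 difference of −0.87 ± 0.10 (adjusted p = 0.00012), without overlap. Atg4a, a protease that primes ATG8 proteins, was at 14.6, 14.1 and 14.5 CPM in fasted M-p110αKO and 20.3, 25.1, 23.4 and 22.9 CPM in fasted controls, a difference of −0.66 ± 0.13 (log2, adjusted p = 0.0068). In the fed mice Atg4a was at 20.0, 17.9, 21.3 and 15.2 CPM in M-p110αKO and 22.9, 22.6, 24.0 and 22.8 CPM in controls, a difference of −0.31 ± 0.11 (log2, adjusted p = 0.26), which was not called. The p110β line had 25.0, 27.5 and 22.7 CPM in fed controls, 19.0, 23.9, 19.1 and 24.3 CPM in fed M-p110βKO, 23.1, 18.9 and 18.5 CPM in fasted controls and 18.4, 25.7, 14.8 and 17.4 CPM in fasted M-p110βKO, with overlap throughout.

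Map1lc3a (LC3A) was at 84.5, 79.7 and 103 CPM in fasted M-p110αKO and 53.0, 55.4, 53.9 and 45.6 CPM in fasted controls, a difference of 0.78 ± 0.15 (log2, adjusted p = 0.0069). In the fed mice of that line it was at 49.9, 65.3, 56.9 and 54.0 CPM in M-p110αKO and 52.1, 56.5, 52.8 and 82.4 CPM in controls. The p110β line had 86.8, 83.7 and 108 CPM in fed controls, 88.4, 81.3, 97.6 and 98.1 CPM in fed M-p110βKO, 95.5, 102 and 91.3 CPM in fasted controls and 86.6, 78.9, 109 and 101 CPM in fasted M-p110βKO. The fasted M-p110αKO thus lay in the range of the p110β line. Fed mice of the p110β line were higher than fed mice of the p110α line for this gene, by 0.65 ± 0.10 (log2), and the same 3 libraries stood apart from their line at the 77 genes that separate the lines. Whether the 2 are related was not tested.

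Tecpr1 was at 35.6, 41.6 and 37.4 CPM in fasted M-p110αKO and 26.5, 24.4, 29.9 and 24.9 CPM in fasted controls, a difference of 0.54 ± 0.12 (log2, adjusted p = 0.013) without overlap. In the fed mice it was at 28.5, 29.2, 36.7 and 35.2 CPM in M-p110αKO and 37.4, 34.1, 31.7 and 36.2 CPM in controls. Correcting for the GC content and length of the exons ended the calls of Map1lc3a (adjusted p = 0.098) and Tecpr1 (adjusted p = 0.079), and that of Tecpr1 was also lost without mouse 14. As a test of whether the knockout altered the response to fasting, the interaction called 0 members, where 0.209% of all genes were higher and 0.273% lower. An unadjusted p under 0.05 was found with edgeR for 5 higher and 2 lower members, and DESeq2 called 4 and limma-voom 0. The share of all genes with such an unadjusted p is not given here. Map1lc3a, Atg9a, Tecpr1 and Snap29 had the smallest p, at 0.90 ± 0.21 (log2, adjusted p = 0.062), 0.71 ± 0.16 (adjusted p = 0.062), 0.65 ± 0.16 (adjusted p = 0.081) and −0.51 ± 0.13 (adjusted p = 0.092).

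**Figure D4:**
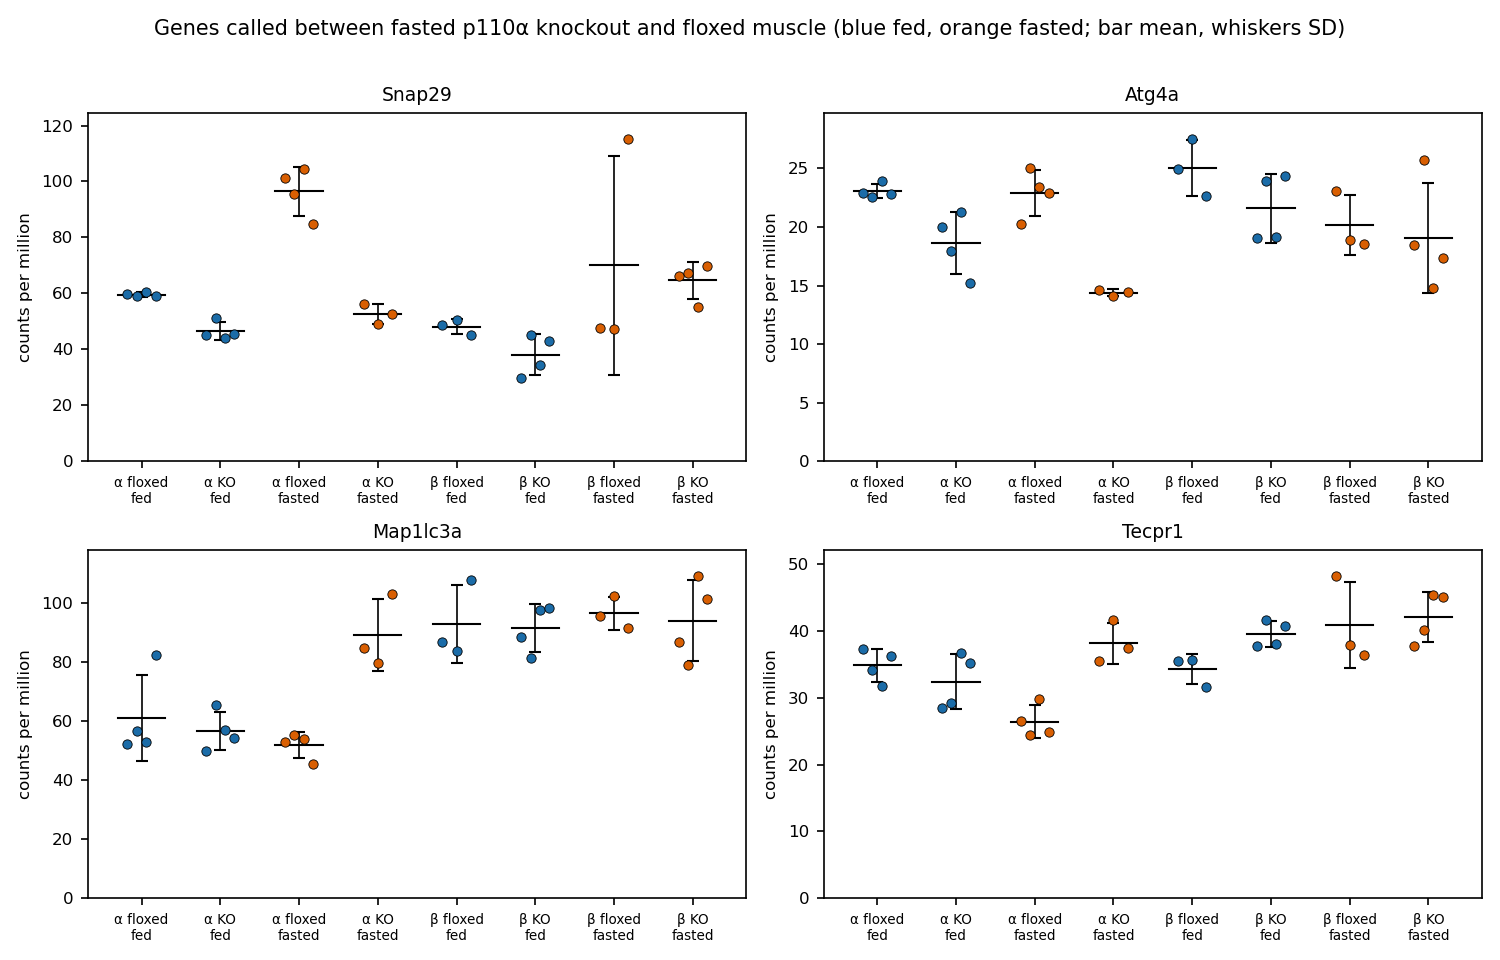
Level in CPM (y axis, from 0) of the 4 members called between fasted M-p110αKO and fasted controls, in each mouse of the 8 groups, with the group mean and SD. Fasted M-p110αKO lie below their controls for Snap29 and Atg4a and above them for Map1lc3a and Tecpr1, and mouse 25 is the single high point of the fasted p110β controls for Snap29.

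In fasted muscle of the p110β line, 0 members were higher and 1 lower in M-p110βKO, where 0.294% of all genes were higher and 0.596% lower. It was Gabarapl1, at 46.1, 46.1, 44.9 and 50.5 CPM in M-p110βKO and 66.2, 65.3 and 97.6 CPM in controls. The groups did not overlap, and the difference was −0.71 ± 0.13 (log2, adjusted p = 0.016). It was −0.48 (adjusted p = 0.027) without mouse 25. Without mice 23 and 24, which carry the adipocyte signal, it was −1.06 (log2), with mouse 25 the only control left. The call was lost without mouse 26 and when the 2 groups were fitted alone (adjusted p = 0.12). Ulk1, at 241, 254, 171 and 286 CPM against 341, 315 and 405 CPM, had −0.57 ± 0.14 (log2, adjusted p = 0.057), which was not called although the groups did not overlap. An unadjusted p under 0.05 was reached by 12 lower members and 2 higher ones. The share of all genes that reached it is not given, here or for the interaction below. The unadjusted counts are therefore not read as particular to the members. In the same comparison the 3 adipocyte markers tested and 2 of the 6 fibroblast markers were lower in M-p110βKO, and their part in these values was not tested. The interaction called 0 members in the p110β line, where 0.0408% of all genes were higher and 0.0653% lower. Unadjusted, edgeR had 2 higher and 8 lower members with p under 0.05, and DESeq2 and limma-voom called 0. Gabarapl1 itself had −0.55 ± 0.20 (log2, adjusted p = 0.30).

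The fasting response of the floxed controls was compared directly between the lines. The log2 fold change was higher in the p110β line for 2 members and lower for 0, where 0.933% and 0.627% of all genes were called. Wipi1 differed by 0.67 ± 0.18 (log2, adjusted p = 0.045) and Tecpr1 by 0.66 ± 0.16 (adjusted p = 0.030). Tecpr1 was at 35.5, 35.6 and 31.7 CPM in fed and 48.2, 38.0 and 36.5 CPM in fasted p110β controls, a change of 0.27 ± 0.12 (log2, adjusted p = 0.12), and at 37.7, 41.6, 38.1 and 40.8 CPM in fed and 37.8, 40.2, 45.4 and 45.1 CPM in fasted M-p110βKO, whereas it fell in the p110α controls by 0.41 ± 0.11 (log2, adjusted p = 0.0096). Without mice 23 and 24 the difference was 0.39 for Wipi1 and 0.52 for Tecpr1 (log2). Mouse 25 was then the only fasted p110β control, so the part of the adipocyte signal cannot be told from this fit. Over all alternatives the call of Wipi1 ended under 19 and that of Tecpr1 under 8. Gabarapl1, Ulk1 and Sqstm1, whose fold changes were highest in the p110β controls, had 0.31 ± 0.21 (log2, adjusted p = 0.46), 0.47 ± 0.19 (adjusted p = 0.20) and 0.41 ± 0.17 (adjusted p = 0.22) for the difference between lines, and none was called.

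Fed mice of the lines differed at 21 members, of which 6 were higher and 15 lower in the p110β line, where 20.8% of all genes were higher and 21.1% lower. Higher were Map1lc3a, Atg7, Becn1, Atg16l2, Uvrag and Atg16l1, with Map1lc3a at 0.65 ± 0.10 (log2, adjusted p = 7.1e-06) and Atg7 at 0.44 ± 0.10 (adjusted p = 0.00078). With the GC and length correction Map1lc3a was at 0.24 (log2, adjusted p = 0.038), still called but below Atg7, which was at 0.39 to 0.47 under the alternatives that kept all mice. The call of Atg16l1 ended under 14 alternatives (DESeq2 size factors, DESeq2, no filter and 11 single mice) and that of Uvrag under 8 (no filter and 7 single mice). Among the 15 lower members, Trp53inp1 had −0.96 ± 0.15 (log2, adjusted p = 9.6e-06), Rb1cc1 −0.74 ± 0.10 (adjusted p = 1.4e-06) and Nbr1 −0.49 ± 0.06 (adjusted p = 1.2e-06). Rb1cc1 was at −0.40 (log2, adjusted p = 0.00015) with the GC and length correction, which also ended the call of Tax1bp1, at −0.07 (adjusted p = 0.42) in place of −0.32. The call of Atg14 ended under 7 alternatives. The floxed gene and the genetic background of the lines cannot be told apart in this comparison.

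A further list of 41 autophagy-related genes outside the machinery was also examined, of which 39 were tested over both lines. It had 18 rises and 8 falls on fasting, with a median of 0.14, where 27.2% of all genes rose and 28.0% fell. In the p110α controls 11 rose and 6 fell, against 15.4% and 14.7% of all genes, and in M-p110αKO 11 and 5, against 11.6% and 9.91%. In the p110β controls 13 rose and 4 fell, against 14.5% and 12.4%, and in M-p110βKO 10 and 6, against 19.0% and 18.9%. Whether the list differed from all genes was not tested. The largest change was that of Retreg1 (FAM134B), a receptor for the endoplasmic reticulum, which rose by 2.47 ± 0.07 (log2) on average (adjusted p = 1.3e-20), or 5.53-fold. That is above the change of any of the 47 members. Zfyve1 (DFCP1), which binds the lipid of the class III kinase at sites of autophagosome formation, rose by 1.49 ± 0.08 (log2). The phosphatase Mtmr14, which removes that lipid, rose by 0.81 ± 0.07 (log2), the adaptor Tollip by 0.59 ± 0.05 and the Rab GTPase activator Tbc1d5 by 0.61 ± 0.08. Ykt6, a SNARE of autophagosome fusion, fell, with −0.44 ± 0.05 (log2). Between fasted M-p110αKO and controls, the glycogen receptor Stbd1 was higher by 1.15 ± 0.21 (log2, adjusted p = 0.0059). The SNARE Vamp7 was lower, with −0.74 ± 0.18 (adjusted p = 0.021), and it is annotated on the scaffold GL456233.1 rather than on a chromosome. They were the only 2 of the list called there, where 3.02% of all genes were higher and 3.51% lower. These fasted M-p110αKO are the libraries that stood apart at the genes that separate the lines. In the other knockout comparisons and the interactions 0 genes of the list were called with edgeR. An unadjusted p under 0.05 was found for 4 higher and 3 lower genes in the fed p110α line and 3 and 1 in the fed p110β line. In the fasted p110β line it was found for 2 and 5. For the interaction it was found for 1 and 3 in the p110α line and 2 and 4 in the p110β line. The share of all genes with such an unadjusted p is not given here.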

How the data were processed

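RNA of tibialis anterior muscle from 29 mice was sequenced by the authors as NEBNext mRNA libraries. The deposited values are raw counts of reads per gene, which per the submitters' processing notes were made with STAR and Subread featureCounts on GRCm38. No source used here gives their versions, the annotation release or the strand setting. The counts were used as deposited, and no column was left out. Gene symbols came from GENCODE M21, which named 47310 of the 48023 genes. Exons of further members overlap other genes, among them Wdr45 (818 of 3310 bases), Uvrag (1589 of 9035) and Sqstm1 (580 of 3356). Assigned reads per library were 5351935 to 11653239. Replicates of a group differed beyond counting noise in all 39 pairs (chi-square per degree of freedom 3.92 to 31.0), so none was counted as a duplicate.

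Genes were filtered with filterByExpr (minimum count 10, total 15), scaled by TMM factors and tested with edgeR 4.0.16 (quasi-likelihood F test, R 4.3.3). The fit took all libraries of a line, or all 29 for comparisons over both lines, with 1 coefficient per group. P-values were adjusted by the Benjamini-Hochberg method over every gene tested, and called under 0.05. Fold changes are log2 of fasted over fed, knockout over control, or p110β line over p110α line. CPM uses TMM-scaled library sizes, and levels of different genes are compared per kilobase of summed exons. The steps were tested on simulated data. Motifs and sequences come from RefSeq promoter windows (GRCm38.p6). A comparison of the ATG8 protein sequences was not analysed here.

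Given with values in every library are the 8 members with the lowest adjusted p in each fasting comparison, every member called in a knockout, interaction or line difference of fasting, and a fixed group of 8 (Ulk1, Becn1, Map1lc3a, Map1lc3b, Gabarapl1, Sqstm1, Snap29 and Atg4a), 19 in all. Of the other autophagy genes, the 6 with the lowest adjusted p on average are named, and those called in a knockout comparison. Members and lists were chosen with earlier results of these data known. Marker lists covered muscle fibre, slow fibre, satellite cell, adipocyte, macrophage, endothelial cell, fibroblast, Schwann cell and erythrocyte. On average over the 4 genotypes the tested markers of these lists had 1 rise and 4 falls of 7, 0 and 0 of 5, 0 and 1 of 4, 2 and 0 of 5, 0 and 0 of 5, 0 and 2 of 5, 1 and 3 of 6, 0 and 0 of 3, and 0 and 1 of 4 on fasting.

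The alternatives tried were scaling by DESeq2 size factors or by upper quartiles, other filters (none beyond 1 read, or 1 CPM in 3 libraries), the Wald test of DESeq2 1.42.0, limma-voom (limma 3.58.1), offsets for GC content and exon length, fits of the compared groups alone and leaving out each mouse. After seeing the data, fits without mice 23 and 24 and without the fasted M-p110αKO were added. The fit without mice 23 and 24 left mouse 25 alone in the fasted p110β controls.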

Additional observations from a re-analysis of the deposited data

Results flagged for a closer look

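Among the 95 pairs of a named gene and a group of 4 mice, 2 held a mouse far from the others of its group by Dixon's test, which chance does in about 1 of 20 groups. Map1lc3a was at 82.4 CPM in mouse 4, a fed control of the p110α line, where the other 3 were at 52.1 to 56.5 CPM. Sqstm1 was at 487 CPM in mouse 22, a fed M-p110βKO, where the other 3 were at 387 to 396 CPM.

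The response to fasting differed between the floxed controls of the lines for 2 members, by the test of the difference itself. Tecpr1 differed by 0.66 and Wipi1 by 0.67 on the log2 scale, p110β line minus p110α line. Both calls ended with the GC and length correction. Both differences were smaller without mice 23 and 24, the fasted p110β controls with the highest adipocyte marker levels. That fit left mouse 25 as the only mouse of the group.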

How the results depend on the processing

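The counts of members called on fasting stayed within 1.5 times of the reported ones in each genotype and on average under every alternative tried, and no result reversed. Counts that moved more were small. Between fed M-p110αKO and controls (0 reported) they were 1 without the filter on low counts, 2 with DESeq2's Wald test and 1 with the GC and length correction. Between fasted M-p110αKO and controls (4 reported) they were 7 with DESeq2 and 2 with the GC and length correction. For the interaction in the p110α line (0 reported) they were 2 with upper-quartile factors, 2 without the filter and 4 with DESeq2. Between fasted M-p110βKO and controls (1 reported) they were 2 with upper-quartile factors, 3 without the filter, 2 with DESeq2 and 0 with the compared groups alone. The interaction in the p110β line (0 reported) had 1 without the filter. For the line difference of the fasting response (2 reported) they were 1 with upper-quartile factors, 4 without the filter, 5 with DESeq2, 1 with limma-voom and 0 with the GC and length correction. The causes were not tested.

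Leaving out each mouse in turn, the counts were 22 to 24 for fasting in the p110α controls, 21 to 30 in M-p110αKO, 23 to 26 in the p110β controls, 23 to 27 in M-p110βKO and 36 to 39 on average. For the knockout they were 0 to 1 in the fed and 3 to 5 in the fasted p110α line, 0 to 0 in the fed and 0 to 3 in the fasted p110β line, and 0 to 0 for each interaction. They were 0 to 4 for the line difference of fasting and 18 to 22 for the lines when fed. Without mice 23 and 24, chosen after seeing the data, mouse 25 was the only fasted p110β control left. In that fit the p110β control fasting calls of Pik3r4, Ambra1, Atg9a, Atg4b, Optn and Rab7 were lost. With 1 mouse left, a lost call cannot be tied to the adipocyte signal. Without the fasted M-p110αKO the average called 34, and the calls of Ulk2, Atg4a, Atg4c and Atg16l1 were lost. Of the 166 calls of a single member in a comparison, 128 held under every alternative and 38 ended under at least 1. Beside those named in the report, fasting calls ended for Atg12 under 13 alternatives in M-p110αKO and 7 in M-p110βKO, Rab7 under 8 in the p110β controls, Ulk2 under 5 in M-p110αKO, Wdr45 under 2 in M-p110αKO and 4 in M-p110βKO, Optn under 3 in each genotype of the p110β line, Atg3 under 3 in M-p110αKO and Atg5 without the filter in the p110α controls. The average call of Ulk2 also ended without the filter. No paired analysis was possible because the title numbers run from 1 to 29 without repeating, so no groups share one. Groups of 3 or 4 mice and 5351935 to 11653239 reads limit what can be seen in the knockout comparisons, so a member that was not called is not shown to be unchanged.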
